A study of Mus musculus with 8 samples.

Results

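The 10 genes described here are the core of necroptosis, a form of cell death in which the cell breaks open, together with the sensor Zbp1, the cytokine Tnf and the switches around them. They were chosen by name, with earlier results of these data known: Ripk1, Ripk3, Mlkl, Zbp1, Tnf, Tnfrsf1a, Casp8, Fadd, Cyld and Birc2. All 10 were found, by gene identifier, among the 16958 genes with values in the deposited table of crypt RNA. The study deleted Setdb1, which encodes a methyltransferase that marks histone H3 on lysine 9 and silences repeats and genes, and its title names necroptosis of stem cells. It has 8 samples of mouse intestine, 6 of crypts and 2 of stem cells, and the table holds the crypts only.

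The control, WT, is 1 crypt library with the genotype setdb1fl/fl, in which both copies of the gene are flanked by loxP sites. The table heads its control column WT1, which was taken to be this library; the labels do not explain the digit, and every ratio to WT rests on this reading. The other 5 crypt libraries, VEMD2, VEMD3, VEMD4, VEMD6 and VEMD8, carry the genotype setdb1 iIEC-KO. Per the labels, the recombinase was CreERT2 under the Villin promoter, which is active in the epithelium of the gut, so leukocytes and stroma in a crypt preparation should have kept the gene. All 6 are of strain C57BL/6 and age 8 weeks, and the labels give a dose of tamoxifen of 800 mg/kg by gavage to knockout mice and to WT littermates alike. The labels do not spell out VEMD, and the numbers are used here as names. Each group is 1 library, so no value has an error and no difference was tested; higher and lower describe these libraries alone. A gene is called higher or lower when it is at least 2-fold from WT after 1 FPKM (fragments scaled by gene length and library size) is added to both values, that is at a log2 ratio of 1 or -1. In bulk RNA, fewer cells of a type and less RNA per cell cannot be told apart.

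Necroptosis begins when TNF, bound to its receptor TNFR1, gathers RIPK1 into a complex at the membrane. There the ubiquitin ligase cIAP1, encoded by Birc2, ties ubiquitin chains to RIPK1 and favours survival, and CYLD cuts such chains off. RIPK1 can then move to a second complex with FADD and caspase-8, which leads to apoptosis and which keeps RIPK3 in check by cleavage. Where caspase-8 fails, RIPK3 phosphorylates MLKL, which opens the plasma membrane. ZBP1 binds nucleic acids in the Z form and recruits RIPK3 without TNF. In mice, loss of Casp8 or Fadd in the gut epithelium leads to death of Paneth cells and inflammation, largely through Ripk3.

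Where 5 values stand in a row below, they follow the order VEMD2, VEMD3, VEMD4, VEMD6, VEMD8. Setdb1 measured 9.42 FPKM in WT, against 6.64, 7.03, 5.49, 3.53 and 4.95 for the knockouts, each below WT. A value for the whole gene does not show whether the floxed exons were lost. Over the 10862 genes whose mean reached 1 FPKM, which are called tested genes here, the median log2 ratio to WT was 0.09, 0.12, 0.03, -0.23 and -0.06. Broad epithelial markers were all at 1 FPKM or more in every library, 12 of 12, with a summed level of 6158 to 8263 FPKM. Of 13 markers of stroma and vessels, 1 or 2 per library reached 1 FPKM, and their summed level was 1.57 to 7.64. Leukocyte markers summed to 118.3 FPKM in WT, against 85.4, 113.7, 158.5, 97.7 and 60.0 for the knockouts, with 9 to 16 of 22 at 1 FPKM or more. Gzma, a granzyme of cytotoxic lymphocytes, made up 85.9 of the 118.3 FPKM in WT. Without it, which was chosen after its values were seen, the other 21 summed to 32.4 FPKM in WT, against 27.9, 39.0, 63.7, 27.3 and 19.6 for the knockouts. The neutrophil genes S100a8 and S100a9 were at 2.85 and 3.58 FPKM in VEMD4, both at 0 in WT, VEMD2 and VEMD8, and at 0.12 or less in VEMD3 and VEMD6.

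Promoter windows from RefSeq (GRCm38.p6), of 250 bases before and 50 after a start site, were at hand for 9 of the 10 genes, in 11 windows. Zbp1 had no window, so its promoter was not searched for motifs. They are shown for 5 genes because these stand for the patterns described below: Tnf, Mlkl and Casp8 were above WT in all 5 knockout libraries, Fadd was below WT in all 5, and Ripk1 stayed near WT. Each reads 5′ to 3′ on the strand of the gene, and capitals mark the dinucleotide CG. The windows are chr17:35201958-35202257 (Tnf), chr8:111338156-111338455 (Mlkl) and chr7:144582392-144582691 (Fadd), on the minus strand, and chr1:58802252-58802551 (Casp8) and chr13:34002624-34002923 (Ripk1), on the plus strand.
Tnf: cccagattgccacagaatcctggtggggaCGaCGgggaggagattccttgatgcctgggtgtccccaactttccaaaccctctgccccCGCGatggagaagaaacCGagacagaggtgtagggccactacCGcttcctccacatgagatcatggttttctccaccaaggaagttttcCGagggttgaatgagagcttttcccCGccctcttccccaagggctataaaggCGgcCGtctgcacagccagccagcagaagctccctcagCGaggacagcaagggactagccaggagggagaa
Mlkl: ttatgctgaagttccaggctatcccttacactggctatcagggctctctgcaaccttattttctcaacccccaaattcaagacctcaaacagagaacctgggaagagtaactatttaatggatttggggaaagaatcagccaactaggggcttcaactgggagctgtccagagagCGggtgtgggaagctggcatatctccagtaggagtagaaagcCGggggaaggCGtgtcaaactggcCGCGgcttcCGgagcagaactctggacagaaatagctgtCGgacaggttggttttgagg
Casp8: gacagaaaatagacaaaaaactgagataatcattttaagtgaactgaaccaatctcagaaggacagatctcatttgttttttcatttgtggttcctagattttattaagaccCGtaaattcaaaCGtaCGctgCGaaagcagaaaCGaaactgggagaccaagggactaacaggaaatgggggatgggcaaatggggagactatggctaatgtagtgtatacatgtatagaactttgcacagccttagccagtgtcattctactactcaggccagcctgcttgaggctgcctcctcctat
Fadd: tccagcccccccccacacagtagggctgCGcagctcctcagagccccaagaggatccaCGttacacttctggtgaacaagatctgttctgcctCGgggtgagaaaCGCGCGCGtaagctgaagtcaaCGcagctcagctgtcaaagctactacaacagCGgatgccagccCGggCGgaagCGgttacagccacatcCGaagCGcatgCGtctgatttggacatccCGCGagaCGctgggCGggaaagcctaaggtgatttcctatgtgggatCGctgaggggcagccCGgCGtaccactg
Ripk1: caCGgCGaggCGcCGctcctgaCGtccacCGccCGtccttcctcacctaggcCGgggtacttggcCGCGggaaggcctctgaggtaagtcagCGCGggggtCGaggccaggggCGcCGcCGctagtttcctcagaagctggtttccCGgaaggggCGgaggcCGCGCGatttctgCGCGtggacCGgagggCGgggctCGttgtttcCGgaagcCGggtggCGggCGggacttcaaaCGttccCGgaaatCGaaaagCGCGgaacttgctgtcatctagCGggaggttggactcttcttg

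The CG count was 11 for Tnf, 7 for Mlkl and 5 for Casp8, against 22 for Fadd and 36 for this window of Ripk1. The windows shown for Casp8 and Ripk1 start at 58802252 and 34002624, inside gene models that start at 58795233 and 34002225. That of Mlkl, on the minus strand, ends at 111338455, inside a gene model that ends at 111338479. The count thus depends on which start site is taken. The other Ripk1 window held 22, those of Birc2 34 and 21, Cyld 22, Tnfrsf1a 11 and Ripk3 10, and the median over all 32851 windows in the table was 7. The 6 motifs were searched on both strands. The TATA box TATAAA lies 29 bases before the start of Tnf and was found in no other of the 11 windows; 13.6% of all windows hold it. An element like those bound by interferon-activated factors, GAAA repeated after 2 free bases, was found in the second Ripk1 window only, as GAAATCGAAA starting 5 bases before the start site, and in 3.44% of all windows. TTCNNNGAA, the form bound by STAT dimers, had 2 matches in that window and 1 in that of Tnfrsf1a, and in 8.3% of all windows, and the second of the Ripk1 matches overlaps the interferon-like element. The kappa B consensus was found once, in the Cyld window, and in 8.46% of all windows, and the AP-1 site TGANTCA in none of the 11 and in 7.81% of all. The GC box GGGCGG was found in windows of Fadd, Cyld, Birc2, Ripk1, Ripk3 and Tnf and in 35.7% of all windows. A match is a description of letters in this window.

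Of the 10 genes, 2 were at least 2-fold from WT in any library, and both were higher: Tnf in each knockout library but VEMD6, and Zbp1 in VEMD4 alone. No member was 2-fold lower in any library or 2-fold higher in all 5, where 0.571% of tested genes were higher in all 5 and 0.626% lower. All 10 were at 1 FPKM or more in WT, so each passed the filter on low values without help from a knockout library. Among tested genes, the share called higher was 2.44%, 6.0%, 7.11%, 5.04% and 4.36%, and 24.5% were 2-fold from WT in at least 1 library. The counts of members called higher, 1, 1, 2, 0 and 1 of 10, rest on Tnf and Zbp1 alone, and 2 of 10 members called in any library is near the background share. The median log2 ratio of the 10 was -0.08, 0.10, 0.27, 0.21 and 0.01. The log2 distance from the lowest to the highest of the 6 libraries had a median of 0.67 over the members and of 0.83 over tested genes, and it reached 2-fold for 2 members, Tnf and Zbp1, and for 37.1% of tested genes.

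**Figure D1:**
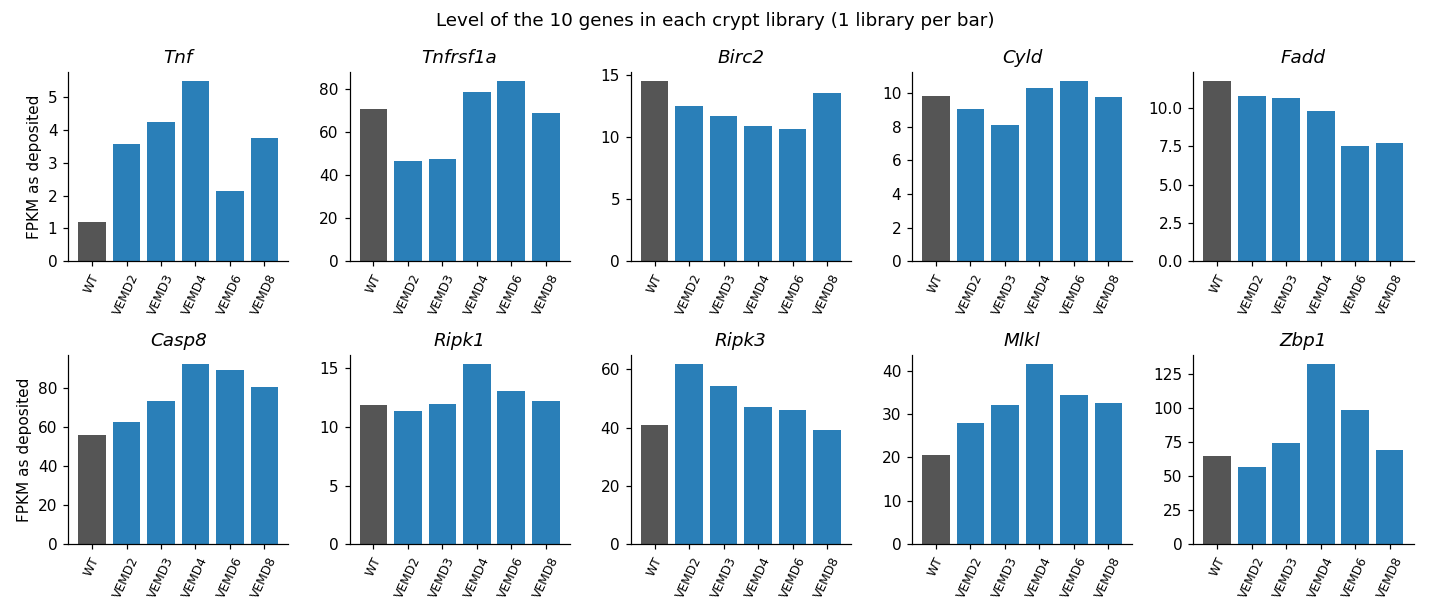
Level of the 10 genes as deposited FPKM (y axis, from 0, a scale of its own for each gene) in the 6 crypt libraries (x axis), with WT in grey and knockouts in blue and 1 library per bar. Tnf, Mlkl and Casp8 are above WT in every knockout library, and Fadd and Birc2 are below it in every one.

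Tnf (gene 21926, chromosome 17, 35199367 to 35202007 on GRCm38) encodes the cytokine that starts the pathway. It was the least abundant of the 10 in every library, with 1.19 FPKM in WT, against 3.57 for VEMD2, 4.25 for VEMD3, 5.5 for VEMD4, 2.15 for VEMD6 and 3.76 for VEMD8. All 5 knockout libraries were above WT, with VEMD4 highest and VEMD6 closest to WT. The log2 ratios were 1.06, 1.26, 1.57, 0.52 and 1.12. To be 2-fold higher in at least 4 of the 5 libraries held for 1.65% of tested genes. Because the levels are low, the size depends on what is added: with 5 FPKM in place of 1 the ratios of VEMD2, VEMD3, VEMD4 and VEMD8 were 0.47, 0.58, 0.76 and 0.50, and none was called. After each library was rescaled so that its median gene matched WT, the ratio in VEMD2 was 0.99. The summed level of the leukocyte markers was highest in VEMD4, with Gzma or without it, as the level of Tnf was, and S100a8 and S100a9 were highest there too. In VEMD3 the sum was below WT with Gzma and above WT without it. Among markers of myeloid cells, Cd68 had log2 ratios of 0.31, 0.76, 1.43, -0.44 and -0.20. Those of Tyrobp were 0.19, 0.90, 1.66, 0.27 and -0.55, while Itgam was below WT in all 5 libraries. In VEMD2, VEMD6 and VEMD8, where Tnf was above WT, both sums were below WT, though Cd68 and Tyrobp were above WT in VEMD2. The part of leukocytes in the level of Tnf was not tested.

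Tnfrsf1a (gene 21937, chromosome 6, 125349723 to 125362483) encodes TNFR1, the receptor that carries the death signal. It measured 70.5 FPKM in WT, against 46.2 for VEMD2, 47.5 for VEMD3, 78.2 for VEMD4, 83.5 for VEMD6 and 68.4 for VEMD8. VEMD2 and VEMD3 stood below the other libraries, with log2 ratios of -0.60 and -0.56, and the other 3 lay within 0.24 of WT. In WT it was the most abundant of the 10 and stood above 88.1% of tested genes or level with them. Tnfrsf1b, which encodes the second TNF receptor and lacks a death domain, was above WT in both of these libraries. It measured 3.74 FPKM in WT, against 9.5 for VEMD2, 12.6 for VEMD3, 17.8 for VEMD4, 3.0 for VEMD6 and 5.53 for VEMD8. Within a library, which leaves the scaling out, the FPKM ratio of Tnfrsf1a to Tnfrsf1b was 18.9 in WT, 4.87, 3.78 and 4.41 in VEMD2, VEMD3 and VEMD4, and 27.8 and 12.4 in VEMD6 and VEMD8.

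Birc2 and Cyld, the members that act on the ubiquitin of RIPK1, stayed close to WT. Other ubiquitin enzymes of the TNF receptor complex are given further below. Birc2 (gene 11797, chromosome 9, 7818226 to 7837131), for the ligase cIAP1, measured 14.5 FPKM in WT, against 12.5, 11.7, 10.9, 10.6 and 13.6 for the knockouts. It was below WT in all 5, by -0.42 on the log2 scale at most. When each library was rescaled to the same sum, the ratio in VEMD8 was 0.15, so its direction there depends on the scaling. Cyld (gene 74256, chromosome 8, 88696878 to 88751946), for the enzyme that removes ubiquitin chains, measured 9.84 FPKM in WT, against 9.09 for VEMD2, 8.14 for VEMD3, 10.3 for VEMD4, 10.7 for VEMD6 and 9.77 for VEMD8. Its log2 ratios lay between -0.25 and 0.12 and its levels spanned 0.36 on the log2 scale over the 6 libraries, WT included, the narrowest span of the 10, with Ripk1 at 0.40 and Birc2 at 0.42. The gene model of Cyld overlaps 2 pseudogenes, and whether the counting used strand is not given in the sources used here.

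Fadd and Casp8, whose proteins form the apoptotic complex together, differed in direction. Fadd (gene 14082, chromosome 7, 144578323 to 144582441), the adaptor, measured 11.8 FPKM in WT, against 10.8 for VEMD2, 10.7 for VEMD3, 9.8 for VEMD4, 7.54 for VEMD6 and 7.76 for VEMD8. It was below WT in all 5, with the lowest ratios, -0.58 and -0.55, in VEMD6 and VEMD8. Casp8 (gene 12370, chromosome 1, 58795233 to 58847503), the protease, measured 56.2 FPKM in WT, against 62.6 for VEMD2, 73.7 for VEMD3, 92.4 for VEMD4, 89.7 for VEMD6 and 80.8 for VEMD8. It was above WT in all 5, at log2 ratios of 0.15, 0.38, 0.71, 0.66 and 0.51. Neither reached 2-fold in any library. Being below WT in all 5 held for 20.8% of tested genes and being above WT in all 5 for 17.0%, so neither pattern is rare. Both directions held in all 5 libraries after rescaling to the median gene and to the sum, in part by small margins. Fadd was at -0.08, -0.01 and -0.07 in VEMD2, VEMD3 and VEMD4 after rescaling to the sum. Casp8 was at 0.06 in VEMD2 after rescaling to the median gene. Cflar, for the inhibitor cFLIP that pairs with caspase-8, measured 16.8 FPKM in WT and 13.4 to 18.2 among knockouts. The FPKM ratio of Cflar to Casp8 was thus 0.299 in WT and lower in all 5 knockout libraries, at 0.246, 0.182, 0.162, 0.203 and 0.214.

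**Figure D2:**
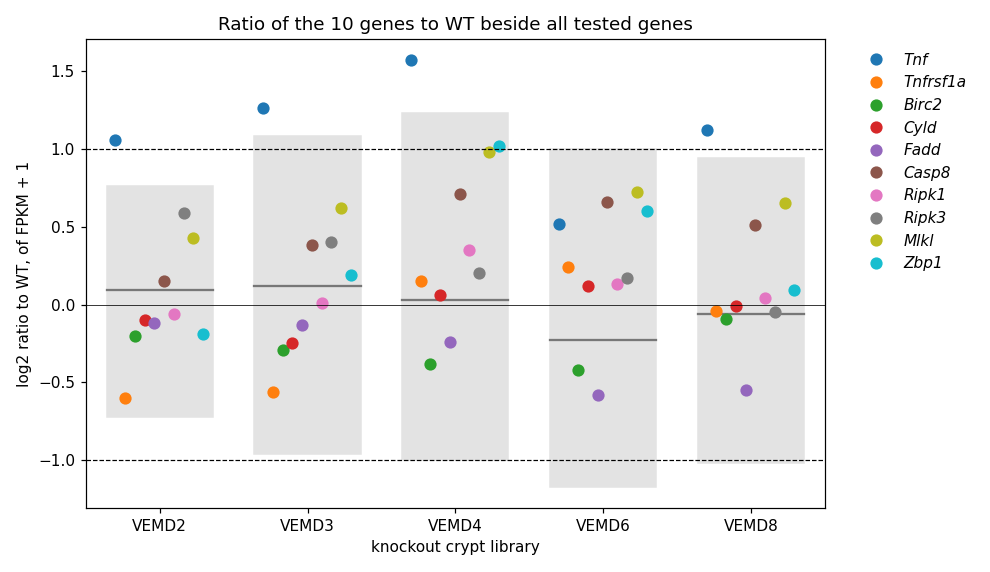
Log2 ratio to WT of FPKM + 1 (y axis) for the 10 genes (coloured points) in each knockout library (x axis). Grey boxes span the 5th to the 95th percentile of all tested genes, grey lines are their medians and dashed lines mark 2-fold. Tnf lies above the grey box in VEMD2, VEMD3, VEMD4 and VEMD8, and no other gene leaves it.

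Ripk1 (gene 19766, chromosome 13, 34002225 to 34035170), the kinase and scaffold that links the receptor to both forms of death, measured 11.9 FPKM in WT, against 11.4 for VEMD2, 12.0 for VEMD3, 15.4 for VEMD4, 13.1 for VEMD6 and 12.2 for VEMD8. VEMD4 was highest, with a log2 ratio of 0.35, and the other ratios lay between -0.06 and 0.13. Its gene model overlaps that of Serpinb6a. Ripk3 (gene 56532, chromosome 14, 55784995 to 55788857), the kinase of MLKL, measured 40.8 FPKM in WT, against 61.7 for VEMD2, 54.1 for VEMD3, 47.0 for VEMD4, 46.0 for VEMD6 and 39.3 for VEMD8. It was the only member with its highest level in VEMD2, at a log2 ratio of 0.59, and in VEMD8 its ratio was -0.05, or 0.02 after rescaling to the median gene. Its model overlaps that of the long non-coding RNA Gm32092.

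Mlkl (gene 74568, chromosome 8, 111311255 to 111338479), which forms the pore, measured 20.5 FPKM in WT, against 28.0 for VEMD2, 32.1 for VEMD3, 41.5 for VEMD4, 34.3 for VEMD6 and 32.6 for VEMD8. WT was lowest and VEMD4 highest, with log2 ratios of 0.43, 0.62, 0.98, 0.72 and 0.65. The ratio in VEMD4 lies just under the threshold, and it was 1.01 with 0.1 FPKM added and 1.19 after rescaling to the sum, which would call it. Mlkl was also above WT in all 5 libraries after rescaling to the sum, while the amount added cannot change a direction. Among the 8307 genes with a symbol and a mean of at least 5 FPKM, those whose 5 ratios stayed closest to Mlkl were Prkx, a protein kinase, Nlrc4, the inflammasome protein, and Lmtk2, a kinase. Their largest difference from Mlkl in any library was 0.12, 0.13 and 0.14 on the log2 scale, and 58 genes stayed within 0.3. Nlrc4 was at 16.1 in WT and 29.8 in VEMD4.

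The balance of Ripk3 with its partners differed between libraries. The FPKM ratio of Ripk3 to Casp8 was 0.725 in WT, 0.985 and 0.734 in VEMD2 and VEMD3, and 0.508, 0.513 and 0.487 in VEMD4, VEMD6 and VEMD8. That of Mlkl to Ripk3 was 0.503 in WT, 0.453 and 0.594 in VEMD2 and VEMD3, and 0.883, 0.746 and 0.831 in VEMD4, VEMD6 and VEMD8. In both, VEMD4, VEMD6 and VEMD8 stood to one side of WT and of VEMD2 and VEMD3. Paneth cell markers split the libraries in the same way, with a sum of 28500 FPKM in WT, against 40610, 20810, 8208, 2309 and 3492 for the knockouts and median log2 ratios of 0.60, -0.23, -1.61, -3.36 and -2.83 over 10 genes. Stem cell markers summed to 780.7 FPKM in WT, against 738.1, 554.1, 332.4, 251.6 and 441.6, and Olfm4 alone made up 574.4 of the sum in WT. Their median log2 ratios over 13 genes were 0.35, 0.54, 0.10, -1.01 and -0.42. In VEMD2, VEMD3 and VEMD4 the stem cell median was thus above WT and the sum below it. Enteroendocrine markers summed to 334.2 in WT, against 409.2, 632.1, 313, 97.7 and 34.0. Goblet cell markers summed to 5589 FPKM in WT, against 5331, 3652, 6157, 1168 and 1966, with VEMD4 above WT. The part of these cells in the ratios was not tested. The ratio of Ripk3 to Ripk1 was 3.43 in WT, highest in VEMD2 and VEMD3 at 5.43 and 4.51, and 3.06 to 3.52 in the other 3. Ripk3 was thus the more abundant of these 2 kinases per length in every library.

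**Figure D3:**
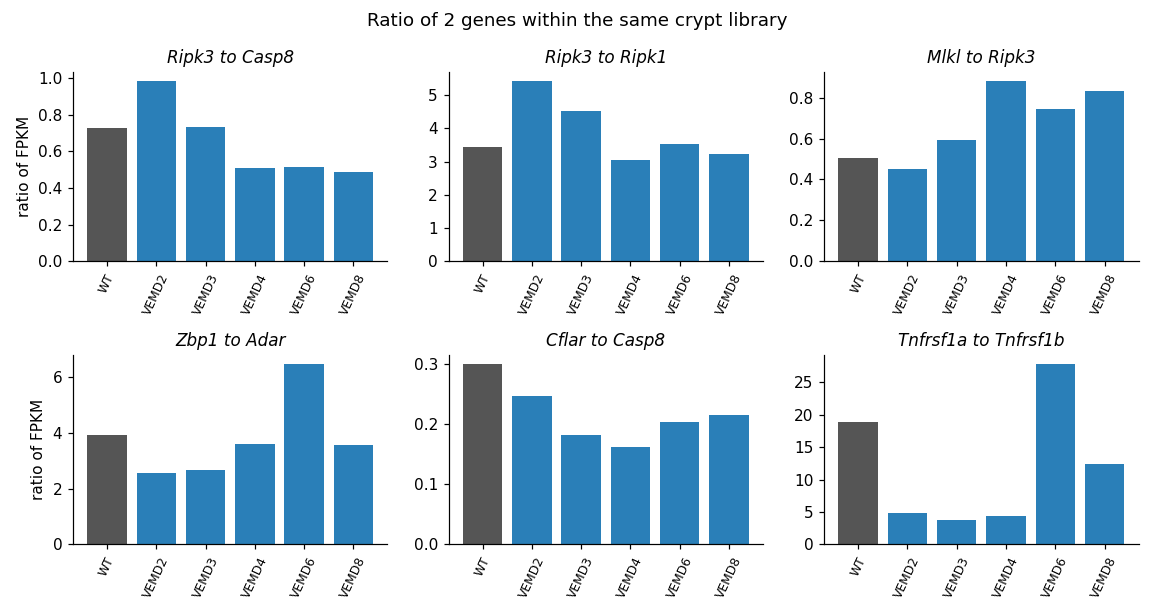
Ratio of the FPKM of 2 genes within the same library (y axes, from 0) for 6 pairs in the 6 crypt libraries (x axis), WT in grey and knockouts in blue, 1 library per bar. The ratio of Mlkl to Ripk3 is highest in VEMD4, VEMD8 and VEMD6, and that of Cflar to Casp8 is lower than WT in all 5 knockout libraries.

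Zbp1 (gene 58203, chromosome 2, 173206612 to 173218959) encodes the sensor of Z-form nucleic acids and is itself induced by interferon. It measured 64.8 FPKM in WT, against 56.8 for VEMD2, 74.3 for VEMD3, 132.5 for VEMD4, 99.0 for VEMD6 and 69.2 for VEMD8. VEMD4 and VEMD6 stood above the other libraries, and VEMD2 was below WT. The log2 ratios were -0.19, 0.19, 1.02, 0.60 and 0.09. The call in VEMD4 rests on a narrow margin, at 0.99 after rescaling to the median gene and 0.98 with 5 FPKM added. In VEMD4, Zbp1 had the highest level of the 10 and stood above 94.1% of tested genes or level with them. Adar, the RNA editor that keeps Z-form RNA from ZBP1, measured 16.6 FPKM in WT, against 22.3 for VEMD2, 27.9 for VEMD3, 36.7 for VEMD4, 15.3 for VEMD6 and 19.5 for VEMD8. The FPKM ratio of Zbp1 to Adar was 3.91 in WT and 3.61 in VEMD4, where both were at their highest, 2.55 and 2.67 in VEMD2 and VEMD3, and 6.46 in VEMD6.

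The genes with ratios closest to those of Zbp1 were Dedd2, a protein with a death effector domain, at a largest difference of 0.17, Cystm1, a small membrane protein, at 0.23, and H2-Q4, a class I histocompatibility gene, at 0.24. Only 11 genes stayed within 0.3. H2-Q4 was at 140.4 FPKM in WT, 263 in VEMD4 and 247.8 in VEMD6, and reads of such genes are hard to assign among their near copies. For Tnf, 3 genes stayed within 0.3: Gclc, which makes the precursor of glutathione, Acot1, a thioesterase of fatty acids, and Ly6e, a membrane protein of the Ly6 family, at 0.25, 0.27 and 0.28. Gclc measured 12.9 FPKM in WT, against 25.7 for VEMD2, 36.7 for VEMD3, 46.8 for VEMD4, 19.4 for VEMD6 and 24.5 for VEMD8. These nearest genes are a description over 5 ratios that share 1 WT library.

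Of the 10 members, 5 had their highest level in VEMD4, namely Tnf, Casp8, Ripk1, Mlkl and Zbp1, while 11.6% of tested genes were highest there. After rescaling to the median gene, 2 were highest in VEMD4, and after rescaling to the sum, 4. The share of tested genes highest there was not computed after rescaling, so these counts have no background beside them. WT was highest for Fadd and Birc2, VEMD6 for Tnfrsf1a and Cyld, and VEMD2 for Ripk3. No member was highest in VEMD3 or VEMD8, where 28.2% and 10.2% of tested genes were. Leukocyte markers had a median log2 ratio of 0.56 over 12 tested genes in VEMD4, against -0.16, 0.23, -0.26 and -0.46 in the other knockout libraries, S100a8 and S100a9 were above 1 FPKM in VEMD4 alone, and their part in the levels of the members was not tested.

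The wider pathway was read from 6 lists, with 96 of 111 genes tested. Of these, 8, 12, 18, 9 and 6 were 2-fold higher, and 2, 5, 3, 1 and 3 were 2-fold lower. Tested genes as a whole were called higher in 2.44%, 6.0%, 7.11%, 5.04% and 4.36%. They were called lower in 2.39%, 4.63%, 5.04%, 8.15% and 5.21%. Of the 18 called higher in VEMD4, 11 were of the interferon list. The list medians below are log2 ratios to WT, to be set beside the medians of all tested genes given above.

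Genes of the TNF receptor complex and its ubiquitin enzymes mostly stayed within 2-fold of WT. Of 21 tested genes, none was called in VEMD2, VEMD3 or VEMD4, 2 were higher in VEMD6 and 1 in VEMD8, with medians of 0.02, 0.06, 0.16, 0.11 and 0.07. With 5 FPKM added, 0 were called in VEMD6 and VEMD8. Xiap, an inhibitor of caspases, was at 16.6 FPKM in WT and 23.1, 25.2, 29.1, 34.7 and 33.7 in the knockouts, above WT in all. Tnfaip3, for the ubiquitin editor A20 that restrains necroptosis and NF-κB, measured 7.64 FPKM in WT, close to the 7.58 and 7.99 of VEMD2 and VEMD3, while VEMD4, VEMD6 and VEMD8 had 15.6, 14.8 and 19.2. Tnip1, a partner of A20, had log2 ratios of -0.16, -0.12, 0.44, 1.01 and 0.27. Rbck1, for the HOIL-1 subunit of the linear ubiquitin ligase, had ratios of 0.23, 0.31, -0.07, -0.69 and -0.76.

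Other death receptors and ligands differed in direction. Of 14 listed genes 8 were tested, with 3, 3, 3, 1 and 0 higher and 0, 1, 2, 1 and 1 lower, and medians of 0.12, 0.12, 0.31, 0.17 and 0.18. Tnfrsf12a, for the receptor of the cytokine TWEAK, measured 6.89 FPKM in WT, against 29.2 for VEMD2, 50.8 for VEMD3, 46.3 for VEMD4, 22.2 for VEMD6 and 13.8 for VEMD8. Tnfrsf10b, for the receptor of the ligand TRAIL, was at 6.06 in WT and 14.2, 20.2, 18.0, 8.11 and 11.1 in the knockouts. Tnfsf10, for TRAIL itself, was at 29.9 in WT and 18.3, 9.03, 7.34, 7.63 and 5.72, below WT in all 5. In each of the 5 libraries the receptor was above WT and its ligand below. Fas, outside the rule for named genes and chosen after its values were seen, had log2 ratios of -0.52, -0.89, -1.06, 0.54 and -0.42, so it was above WT in VEMD6 and below it in the others.

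Apoptosis genes around caspase-8 had 14 tested members, with 1, 1, 1, 1 and 0 higher and 1, 3, 1, 0 and 0 lower, and medians of -0.07, -0.03, 0.04, 0.11 and -0.11. Bax, the mitochondrial pore former, measured 58.7 FPKM in WT, against 133.6 for VEMD2, 201.9 for VEMD3, 152 for VEMD4, 32.9 for VEMD6 and 39.1 for VEMD8. Casp6, for another caspase, measured 106.8 FPKM in WT, against 41.6 for VEMD2, 26.8 for VEMD3, 25.3 for VEMD4, 98.1 for VEMD6 and 74.3 for VEMD8. It was over 2-fold lower in VEMD2, VEMD3 and VEMD4, where Bax was over 2-fold higher. Enterocyte markers summed to 11240 FPKM in WT, against 4571, 3464, 8272, 21600 and 9886 for the knockouts, below WT in every knockout library except VEMD6, and their part in the level of Casp6 was not tested.

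Of 17 regulators of RIPK3 and MLKL, all tested, only Hsp90aa1 was called, higher in VEMD3. It encodes a chaperone that RIPK3 and MLKL need in order to act, and was at 244.6 FPKM in WT and 432.8, 501.9, 380.7, 235.5 and 310.1 in the knockouts. After rescaling to the median gene it was no longer called in VEMD3. Its relative Hsp90ab1 had log2 ratios of 0.56, 0.87, 0.61, -0.25 and 0.16. Peli1, for a ubiquitin ligase of RIPK3, was at 27.9 in WT and 24.9, 15.1, 14.1, 16.1 and 14.6, below WT in all 5. Ippk, for a kinase of inositol phosphates, of the kind that bind MLKL, was above WT in all 5, at 0.56, 0.74, 0.44, 0.32 and 0.69. The list medians were -0.10, 0.15, 0.25, -0.16 and 0.04.

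**Figure D4:**
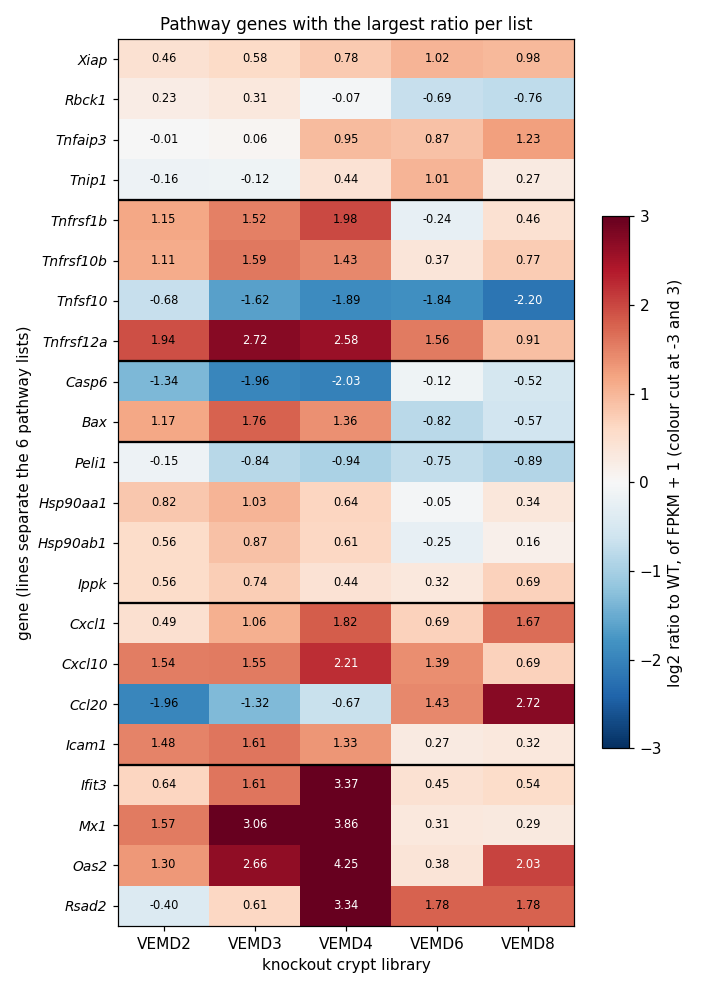
Log2 ratio to WT of FPKM + 1 (colour and printed value; the colour is cut at -3 and 3) for up to 4 of the genes with the largest ratio in each of the 6 pathway lists (rows) in the 5 knockout libraries (columns). Tnfrsf12a is above WT in all 5 libraries and Tnfsf10 below WT in all 5, and the interferon genes are highest in VEMD4.

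NF-κB is the survival branch of TNF signalling. Of 24 listed genes 16 were tested, with 2, 3, 3, 3 and 4 higher and 1, 1, 0, 0 and 0 lower, and medians of -0.16, 0.03, 0.40, 0.25 and 0.24. With 5 FPKM added, 1, 1, 1, 0 and 1 were called higher and 0 lower in any library. Cxcl10, a chemokine also induced by interferon, was at 4.53 FPKM in WT and 15.1, 15.2, 24.6, 13.5 and 7.93 in the knockouts. Icam1, an adhesion molecule, was at 2.28 in WT, 8.13, 8.99 and 7.22 in VEMD2, VEMD3 and VEMD4, and 2.96 and 3.1 in VEMD6 and VEMD8. The chemokine Cxcl1 measured 0.12 FPKM in WT, against 0.57, 1.33, 2.96, 0.81 and 2.57 for the knockouts, and passed the filter only through the knockouts. Ccl20, a chemokine, measured 4.57 FPKM in WT, against 0.43, 1.23, 2.49, 14.1 and 35.7 for the knockouts. Cxcl10 and Cxcl1 were lowest in WT and highest in VEMD4, as Tnf was, though the libraries between came in a different order for each. Icam1 was lowest in WT and highest in VEMD3, and Ccl20 was lowest in VEMD2 and highest in VEMD8.

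Interferon pathway genes had 23 members, all tested, with 2, 4, 11, 3 and 2 higher and 0, 0, 0, 0 and 2 lower, and medians of 0.08, 0.33, 0.94, 0.27 and 0.42. The count of lower genes in VEMD8 was 0 with 5 FPKM added, after rescaling to the median gene and after rescaling to the sum. The 2 called higher in VEMD2 were 0 with 5 FPKM added, and the count of higher genes after rescaling to the sum was 5 in VEMD6 and in VEMD8. The 4 named members, Oas2, Mx1, Ifit3 and Rsad2, were picked for the largest ratios of the list in these data. In VEMD4 they had log2 ratios of 4.25, 3.86, 3.37 and 3.34, against 1.02 for Zbp1, which was near the list median of 0.94. In VEMD6, where Zbp1 was second highest, Rsad2 was at 1.78 and the other 3 at 0.31 to 0.45. Mx1 and Oas2 were 2-fold higher in VEMD2, at 1.57 and 1.30, where Zbp1 was below WT. Ifit3 was at 0.64 there, and Rsad2 was below WT, at -0.40. Isg15 and Usp18, outside the rule for named genes, were chosen after their values were seen. They were at -0.23 and -0.34 in VEMD2 and at 1.01 and 1.18 in VEMD6, so the interferon genes differed among themselves in both libraries.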

How the data were processed

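RNA of 6 crypt libraries, 1 per group, was measured by sequencing on a BGI-500 instrument, per the labels. The submitters' processing notes name HISAT2, featureCounts and edgeR with GRCm38 and mm10, without versions or their use. Values are FPKM made by the authors and deposited with 2 decimals, per the file headers. Of 20718 lines, 3760 hold no value. Symbols came from RefSeq (GRCm38.p6) for 16916 of 16958 genes. Depth is unknown, since steps of whole counts could not be read from low values, where the fullest bin of ratios took 3.79% to 5.29% and the second fullest 3.01% to 3.72%. With 1 library per group there is no error and no test. Ratios were taken as log2 of FPKM + 1 over tested genes, those with a mean of 1 FPKM or more. Python 3.11.15 and pandas 2.3.3 were used, and the rule was tested on simulated data. Named genes are Setdb1, the members, up to 4 genes per pathway list by the largest ratio in any library, and the 3 genes closest to Zbp1, Tnf and Mlkl by their largest difference in 5 ratios; Adar, Cflar and Tnfrsf1b serve the ratios within libraries. Not all genes the rule names are reported here. Members and lists were chosen with earlier results of these data known. The table of repeats and the stem cells were not used here.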

Additional observations from a re-analysis of the deposited data

How the results depend on the processing

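No paired analysis was possible because there was 1 library for each group. The alternatives were a pseudocount of 0.1 or 5 FPKM, no filter on low values, and rescaling to the median gene or to the same sum. Of 250 member ratios recomputed, 240 kept their side of the 2-fold threshold, 10 crossed it and 8 turned their sign, none of those above 0.23 in size. Leaving out the filter does not alter a ratio, and another pseudocount cannot turn its sign, so part of the 250 could not differ. The 8 turned under the rescalings, the only settings that could turn them, from ratios between -0.09 and 0.01. With 5 FPKM added, 0 members were higher in VEMD2, VEMD3, VEMD4 and VEMD8, and the pathway genes called were 3 higher and 1 lower in VEMD2, 3 lower in VEMD3, 4 higher in VEMD6, and 3 higher and 1 lower in VEMD8, since a larger pseudocount shrinks ratios of low genes. After rescaling to the median gene, 0 members were higher in VEMD2 and 1 in VEMD4, 1 pathway gene was lower in VEMD8, and 2 members had their highest level in VEMD4. After rescaling to the sum, 1 member, Mlkl, was higher in VEMD6, at 1.01, and the pathway genes called were 3 lower in VEMD3, 14 higher in VEMD6, and 12 higher and 1 lower in VEMD8. Leaving out 1 knockout library at a time, chosen after seeing the data, gave 0 to 1 members higher in all others, namely Tnf without VEMD6, and 0 members lower. Without counts, how far depth limits single values is unknown, most of all for Tnf.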
